A study of Mus musculus with 4 samples.

Results

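The interferon-inducible GTPases described here were 9 genes, chosen by name from the guanylate-binding protein and immunity-related GTPase families: Gbp2, Gbp3, Gbp5, Gbp7, Irgm1, Irgm2, Igtp, Iigp1 and Ifi47. They were followed among 22911 named genes in the mouse line RAW264.7, whose transformed cells resemble macrophages. RNA was measured in 4 groups with 1 array each. RAW264.7 cells received a SMARTpool of siRNAs against Ruvbl2 and lipopolysaccharide (LPS), the Ruvbl2 siRNAs and DMSO, a control siRNA and LPS, or a control siRNA and DMSO. The sample titles spell the target "siRvbl2", and the series design names RUVBL2, a subunit of chromatin remodelling and chaperone complexes. All groups share the cell line and a transfection made 2 days before analysis, by electroporation or by a lipid reagent, with no statement of which was used. Neither the LPS dose nor its duration is stated in the labels used here.

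Guanylate-binding proteins (GBPs) are large dynamin-like GTPases that assemble on bacteria and on the vacuoles of intracellular parasites. Immunity-related GTPases (IRGs) are smaller, and in mice they fall into effectors that load onto pathogen vacuoles and regulators that hold those effectors inactive on the cell's own membranes. In macrophages both families are known as targets of interferons: interferon gamma acts on them through GAS elements, and type I interferons through interferon-stimulated response elements (ISREs). LPS reaches the same genes through Toll-like receptor 4 and the interferon beta that the cells then release.

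Promoters are shown first because the members share short motifs there that were no part of how they were chosen. Windows of 250 bases before to 50 bases after each gene's start were taken from RefSeq on build GRCm38.p6, and 8 of the 9 genes had a window. The ISRE core was searched on both strands as GAAA, any 2 bases and GAAA, and the GAS core as TTCNNNGAA, which reads alike on both strands. In the lines that follow, capitals mark the matches, each sequence runs 5′ to 3′ on the gene's own strand, and an ISRE core on the opposite strand reads TTTC, N, N, TTTC.
Gbp2: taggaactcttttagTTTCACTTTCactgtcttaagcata
Gbp3: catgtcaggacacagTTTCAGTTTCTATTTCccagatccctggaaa
Gbp5: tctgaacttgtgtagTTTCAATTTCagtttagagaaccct
Gbp7: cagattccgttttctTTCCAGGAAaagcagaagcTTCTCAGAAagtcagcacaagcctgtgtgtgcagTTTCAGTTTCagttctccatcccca
Irgm1: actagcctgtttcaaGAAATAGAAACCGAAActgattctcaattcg
Irgm2: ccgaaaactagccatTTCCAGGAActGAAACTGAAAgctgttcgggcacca
Igtp: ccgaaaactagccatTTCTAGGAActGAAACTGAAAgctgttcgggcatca
The Gbp stretches lie on the plus strand at chr3:142620589-142620628 for Gbp2, chr3:142559984-142560029 for Gbp3, chr3:142496754-142496793 for Gbp5 and chr3:142530215-142530307 for Gbp7. The stretch of Irgm1 lies on the minus strand at chr11:48871420-48871465. Those of Irgm2 and Igtp lie on the plus strand at chr11:58214887-58214937 and chr11:58199496-58199546.

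An ISRE core was found in 7 of the 8 genes with a window, the exception being Ifi47, and such a core stood in 3.44% of all 32851 windows and in 3.99% of 27025 genes. Gbp3, which had 2 windows with matches in 1 of them, and Irgm1 each held 2 overlapping ISRE cores. A GAS core was found in 4 of the 8, namely Gbp5 (outside the stretch shown), Gbp7, Irgm2 and Igtp, against 8.30% of windows and 9.55% of genes. Genes with both cores made up 0.614% of all genes. Among genes most like the members, an ISRE core stood in 5 of 7 other genes of the GTPase families with a window and in 5 of 9 other interferon-induced genes. In Irgm2 and in Igtp the GAS core stands beside the ISRE core, with the same 2 bases between them, and a GAS core stands as close to an ISRE core in the IRG genes Tgtp1 and Tgtp2. Irgm2 and Igtp are neighbours on chromosome 11, and their windows were identical at 244 of 265 aligned bases (92.1%). The Gbp members are clustered on chromosome 3 in the order Gbp5, Gbp7, Gbp3, Gbp2b and Gbp2, so promoters within a cluster are not independent examples. A match describes letters only, and no binding was measured here.

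**Figure D1:**
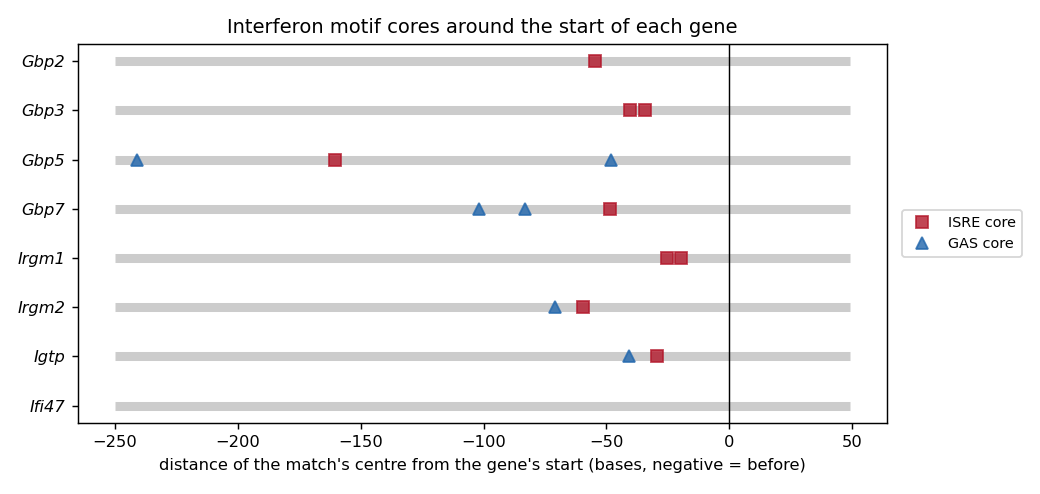
Distance in bases of each ISRE core (squares) and GAS core (triangles) from the start of the gene, for the 8 members with a promoter window (grey bars, 250 bases before to 50 after the start). Ifi47 has no match, and Gbp5 has its ISRE core farther from the start than the other 6 genes with one.

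A level here is the log2 of a probe's processed signal relative to the 75th percentile of its own array, so levels compare one probe across arrays and not one gene with another. A probe counted as measured where the scanner software called it well above background, which held for 12471 genes on all 4 arrays. With 1 array in each group there is no replicate check and no test, and sizes are set beside a technical SD from 300 probes printed 10 times on each array. For a log2 difference this SD came to 0.68 at levels between -6 and -4, 0.27 between -4 and -2, 0.13 between -2 and 3, and 0.06 above 3. It covers the spread between spots and leaves out the spread between cultures. A difference was called past the size rule at 2-fold. All 8 macrophage markers looked up were measured on every array, and of the 3 markers each for T cells, B cells, fibroblasts, epithelium and dendritic cells only Cd3e and Col1a2 were. Both Ruvbl2 siRNA arrays lay in a different row of the slide than both control siRNA arrays, so the row and the siRNA cannot be told apart.

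Ruvbl2 itself gives only a limited check of the labels. Its brighter probe, A_55_P2025974, had levels of 4.51 and 4.67 with Ruvbl2 siRNA in LPS and DMSO, against 4.92 and 5.01 with control siRNA in LPS and DMSO. It was thus lower with Ruvbl2 siRNA by a log2 difference of -0.40 in LPS and -0.34 in DMSO, both several times the technical SD of 0.06. Neither difference reached 1.5-fold. At least 9.88% of genes in LPS and 5.57% in DMSO were lower by more than this probe. The dimmer probe, A_55_P2928822, was lower by -0.12 in LPS (SD 0.27) and -0.55 in DMSO (SD 0.21). Fewer copies in each cell and fewer cells with the siRNA cannot be told apart in bulk RNA, for Ruvbl2 or for the GTPase genes.

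Of the 9 GTPase genes, 8 were measured on every array, and Iigp1 on none. Irgm1 had 3 probes and the others 1 each. The 4 IRG members that were measured are described first. Irgm1, a regulator needed for resistance to several intracellular bacteria, had levels of 3.62 with Ruvbl2 siRNA and LPS and 1.71 with Ruvbl2 siRNA and DMSO, against 3.39 with control siRNA and LPS and 2.27 with control siRNA and DMSO. Irgm2, another regulator, had levels of 2.27 with Ruvbl2 siRNA and LPS and 0.93 with Ruvbl2 siRNA and DMSO, against 2.15 with control siRNA and LPS and 1.53 with control siRNA and DMSO. Igtp, also called Irgm3 and the regulator next to Irgm2, had levels of 3.02 and 1.39 with Ruvbl2 siRNA in LPS and DMSO, against 2.95 and 2.08 with control siRNA in LPS and DMSO. For these 3 regulators the Ruvbl2 siRNA array was the higher of the LPS pair and the lower of the DMSO pair. In LPS only Irgm1 among them differed by more than its technical SD. Ifi47, also called Irgd and grouped with the effectors, had levels of 2.57 and 1.29 with Ruvbl2 siRNA in LPS and DMSO, against 2.89 and 1.77 with control siRNA in LPS and DMSO. In Ifi47 the Ruvbl2 siRNA array was the lower of both pairs.

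Some GBP signals were close to the floor, the lowest level among probes well above background, which was between -5.15 and -4.82 on the 4 arrays. Gbp3, a member of the chromosome 3 cluster, had levels of -0.70 and -3.08 with Ruvbl2 siRNA in LPS and DMSO, against 0.19 and -2.17 with control siRNA in LPS and DMSO. Gbp7, known for its part in assembling the phagocyte oxidase, had levels of -1.46 and -4.69 with Ruvbl2 siRNA in LPS and DMSO, against -1.37 and -3.77 with control siRNA in LPS and DMSO. Both had LPS arrays well above their DMSO arrays under either siRNA. Gbp2, which is recruited to the Toxoplasma vacuole, had levels of -2.90 and -4.08 with Ruvbl2 siRNA in LPS and DMSO, against -3.02 and -3.67 with control siRNA in LPS and DMSO. Gbp5, linked to activation of the NLRP3 inflammasome, had levels of -3.80 and -4.26 with Ruvbl2 siRNA in LPS and DMSO, against -3.96 and -4.73 with control siRNA in LPS and DMSO. The 4 levels of Gbp5 spanned less than those of the other GBP members, and its DMSO arrays lay in the range where the technical SD is 0.68.

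**Figure D2:**
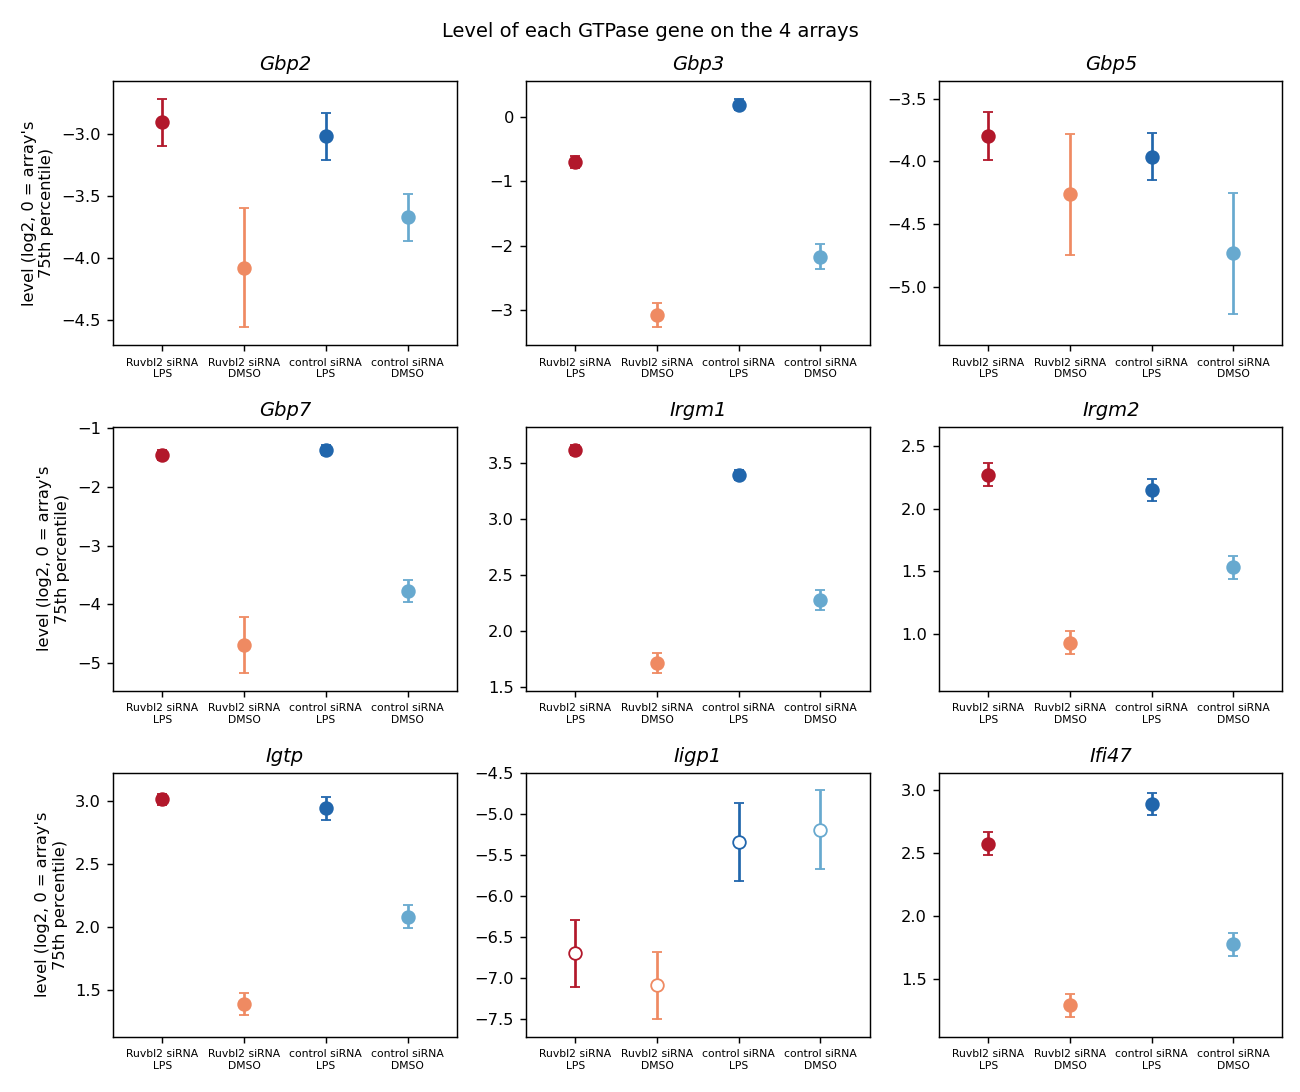
Level (log2 of the processed signal relative to the array's 75th percentile) of the 9 GTPase genes on the 4 arrays, 1 array in each group, with bars for the technical SD either side and open points where the probe was not well above background. The LPS arrays lie above the DMSO arrays with the same siRNA for all 8 measured genes, and Iigp1 was not well above background on any array.

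Iigp1, also called Irga6 and the best studied effector of the family, had processed signals of 3.93 and 2.44 with Ruvbl2 siRNA in LPS and DMSO, against 9.76 and 12.51 with control siRNA in LPS and DMSO. None of these was well above background, so its levels are bounds and no fold is given. All medians and counts of members below therefore cover 8 genes.

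LPS against DMSO was compared within each siRNA. With Ruvbl2 siRNA, 7 of the 8 measured members were past 2-fold higher in LPS, where 4.14% of 13517 genes were. Their median log2 difference was 1.48, against -0.03 over all genes. Gbp7 was 9.36-fold higher (log2 3.23, technical SD 0.49) and Gbp3 was 5.18-fold higher (2.37, SD 0.21). The regulators were 3.74-fold higher for Irgm1, 2.53-fold for Irgm2 and 3.09-fold for Igtp, and the effector Ifi47 was 2.43-fold higher. Gbp2 was 2.26-fold higher, but under normexp correction with quantile normalization its log2 difference was 0.45, short of the size rule. Gbp5 differed by 0.46, less than its technical SD of 0.52. Gbp7 also depended on the correction, with a log2 difference of 1.37 in place of 3.23 under normexp correction with quantile normalization. That correction adds an offset of 50 to each signal, which by construction shrinks the differences of dim probes. With Ruvbl2 siRNA and DMSO the processed signals were 12.86 for Gbp7 and 19.56 for Gbp2.

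With control siRNA, 4 of the 8 members were past 2-fold higher in LPS, where 5.74% of 13512 genes were: Gbp7, Gbp3, Ifi47 and Irgm1. Gbp7 was 5.28-fold higher (log2 2.40, or 1.21 under normexp correction with quantile normalization), Gbp3 5.13-fold, Ifi47 2.17-fold and Irgm1 2.16-fold. The other 4 lay between 1.53-fold and 1.82-fold higher, with log2 differences of 0.86 for Igtp, 0.77 for Gbp5, 0.66 for Gbp2 and 0.62 for Irgm2. All 8 were thus past 1.5-fold, as were 11.9% of genes. The median over the members was 0.99, against 0.00 over all genes. Gbp2 and Gbp5 were short of 1.5-fold under normexp correction with quantile normalization, at 0.26 and 0.15.

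**Figure D3:**
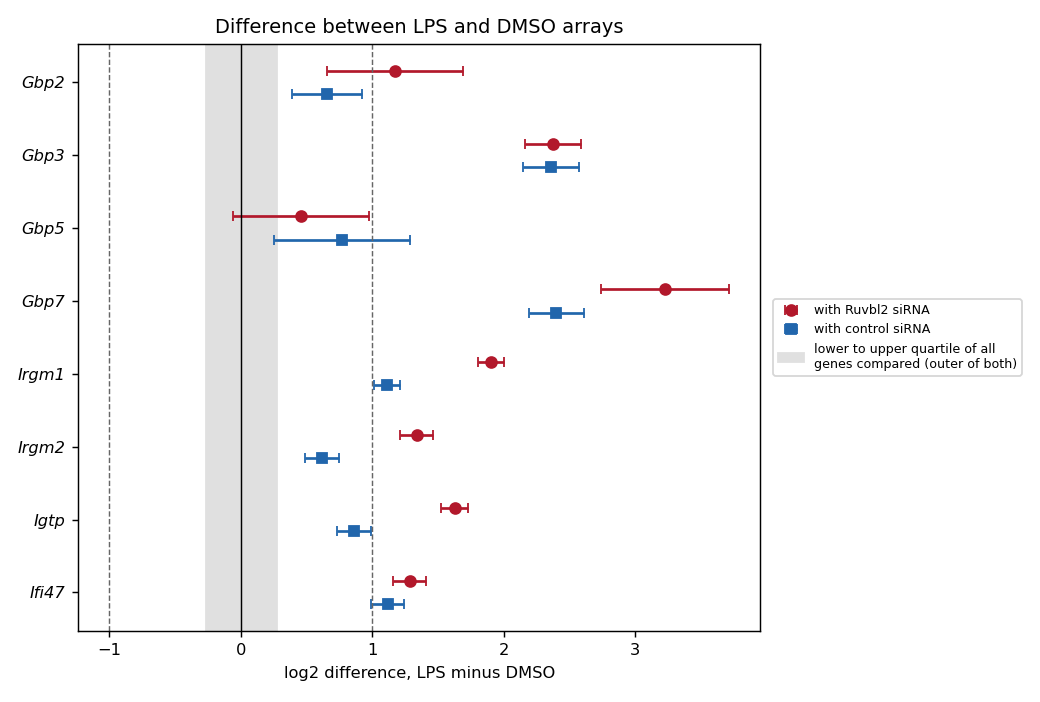
Log2 difference between the LPS and the DMSO array (x axis) of the 8 measured members, with Ruvbl2 siRNA (circles) and with control siRNA (squares). Bars are the technical SD either side, dashed lines mark 2-fold, and the grey band spans the quartiles of all genes; every point lies above 0.

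Ruvbl2 siRNA against control siRNA was then compared within each treatment. In LPS no member was past 2-fold in either direction, and 1.46% of 13472 genes were past 2-fold lower. The median log2 difference over the members was 0.09, against 0.00 over all genes, and 3 of 8 were below 0, beside 49.21% of all genes. Gbp3 was 1.86-fold lower with Ruvbl2 siRNA (log2 -0.89, SD 0.13), the 1 member past 1.5-fold, where 5.26% of genes were past 1.5-fold lower. Ifi47 was lower by -0.32 (SD 0.13) and Irgm1 higher by 0.23 (SD 0.06). Irgm2 at 0.12, Gbp2 at 0.11, Igtp at 0.07, Gbp5 at 0.16 and Gbp7 at -0.09 differed by less than their technical SDs.

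In DMSO, 7 of the 8 members were lower with Ruvbl2 siRNA, and their median log2 difference was -0.58, against 0.04 over all genes, of which 42.35% were below 0. None was past 2-fold lower, as were 0.537% of 13418 genes. Past 1.5-fold lower were 4 members, where 2.50% of genes were: Gbp7 (-0.91, SD 0.52), Gbp3 (-0.91, SD 0.27), Igtp (-0.70, SD 0.13) and Irgm2 (-0.60, SD 0.13). Irgm1 was lower by -0.56 and Ifi47 by -0.48, each with an SD of 0.13. Gbp2 at -0.41 (SD 0.52) and Gbp5 at 0.47 (SD 0.68) differed by less than their technical SDs. The 4 IRG values lay between -0.70 and -0.48 and were each more than 3 times their SD, whereas the GBP values ran between -0.91 and 0.47. Under normexp correction with quantile normalization Gbp3 was at -0.40 and Gbp7 at -0.25, while Igtp and Irgm2 were at -0.70 and -0.59. The offset of that correction shrinks dim probes, such as those of Gbp3 and Gbp7 in DMSO, more than bright ones.

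The scale of the DMSO comparison moved with the choice of scaling. Spike-in RNAs, added in known amounts before labelling, were higher in DMSO with Ruvbl2 siRNA than with control siRNA, by a median of 0.27. Each array was scaled on its median spike-in level, which in DMSO was 3.95 with Ruvbl2 siRNA and 3.64 with control siRNA. After this scaling the median of all genes was -0.27 and that of the members -0.89. The scaling shifts all measured differences of a comparison alike. The members' median minus that of all genes, -0.62 under either scaling, was therefore fixed in advance and is no second check. On that scale 3 members were past 2-fold lower, as were 221 of 13463 genes. The 3 were Gbp7 and Gbp3 at -1.22 each and Igtp at -1.01, and Gbp5 was at 0.16. In LPS the spike-ins differed by 0.00 between the siRNAs.

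**Figure D4:**
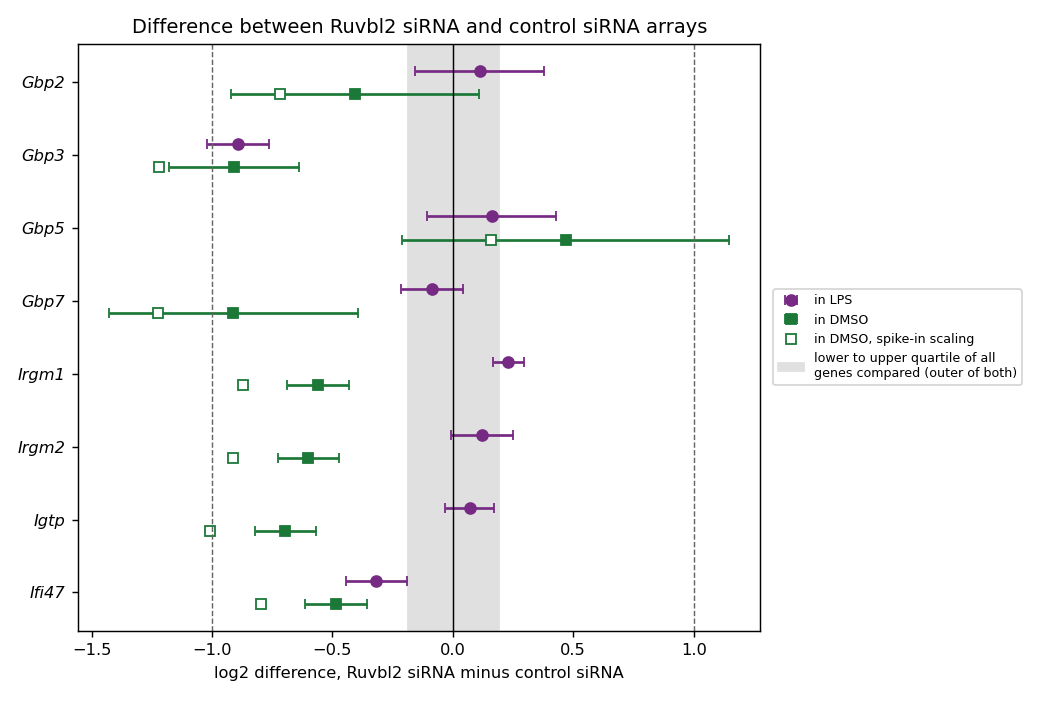
Log2 difference between the Ruvbl2 siRNA and the control siRNA array (x axis) of the 8 measured members, in LPS (circles) and in DMSO (squares; open squares after scaling on spike-ins). Bars are the technical SD either side dashed lines mark 2-fold and the grey band spans the quartiles of all genes; in DMSO all members except Gbp5 lie below 0.

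The LPS effect with Ruvbl2 siRNA minus that with control siRNA uses all 4 arrays and equals the siRNA difference in LPS minus that in DMSO. It was above 0 for 7 of 8 members, with a median of 0.62 against -0.03 over all genes, of which 54.98% were below 0. None was past 2-fold, as were 0.513% of 12471 genes in the higher direction, and 4 were past 1.5-fold, as were 2.92%. These were Gbp7 (0.83, SD 0.53), Irgm1 (0.79, SD 0.14), Igtp (0.77, SD 0.16) and Irgm2 (0.72, SD 0.18). Under normexp correction with quantile normalization Irgm1, Igtp and Irgm2 were at 0.72, 0.77 and 0.66, and Gbp7 was at 0.16. The offset of that correction moves bright probes, such as those of the 3 regulators, less than the dim probe of Gbp7. Gbp2 at 0.52, Ifi47 at 0.17 and Gbp5 at -0.31 were within their technical SDs of 0.58, 0.18 and 0.73. Gbp3 differed by 0.02 and turned negative under normexp correction with quantile normalization and with centring on detected probes, and Gbp5 was at 0.01 with spike-in scaling. Of the lists described below, 7 of 8 other genes of the GTPase families were also above 0 (median 0.335). So were 6 of 8 other interferon-induced genes (median 0.35). Above 0 were 7 of 17 interferon signalling genes (median -0.03) and 6 of 18 partner genes of autophagy and inflammasomes (median -0.16).

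The 3 probes of Irgm1 read the same RNA at different places and are not replicates of a condition. The LPS difference with Ruvbl2 siRNA was 1.90, 2.01 and 1.89 by these probes, and with control siRNA it was 1.11, 0.92 and 1.06. The siRNA difference was 0.23, 0.19 and 0.23 in LPS and -0.56, -0.90 and -0.60 in DMSO. All 3 probes thus gave the same sign in each comparison, and the spread between them in DMSO was larger than the technical SD of 0.13.

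Other genes of the same families were taken from a list of 21, of which 15 had a probe and 8 were measured on all 4 arrays. Past 2-fold higher in LPS were 2 of 9 compared with Ruvbl2 siRNA, beside 4.14% of all genes, and 3 of 10 with control siRNA, beside 5.74%. Under normexp correction with quantile normalization there was 1 with each siRNA, and the control siRNA median was -0.04 in place of 0.01. Of all genes, 298 of 13483 with Ruvbl2 siRNA and 450 of 13529 with control siRNA were past 2-fold higher under that correction. Gvin1, a very large interferon-inducible GTPase, had levels of 3.89 and 1.91 with Ruvbl2 siRNA in LPS and DMSO, against 4.12 and 2.54 with control siRNA in LPS and DMSO, and so differed by 1.98 and 1.58 between LPS and DMSO with the Ruvbl2 and the control siRNA. Tgtp2, an IRG effector gene and the neighbour of Ifi47, had levels of -2.16 and -3.46 with Ruvbl2 siRNA in LPS and DMSO, against -1.42 and -2.44 with control siRNA in LPS and DMSO. It was lower with Ruvbl2 siRNA in both treatments, by -0.74 in LPS (SD 0.21) and, past 2-fold, by -1.02 in DMSO (SD 0.27). That was the 1 listed gene past 2-fold lower in DMSO, beside 0.537% of all genes. Under normexp correction with quantile normalization there were 0, beside 25 of 13420 genes. Gbp9 was well above background only with control siRNA and LPS, where it was at least 2.37-fold higher than with control siRNA and DMSO. With Ruvbl2 siRNA all 9 listed genes compared in DMSO were below 0 (median -0.32), and 6 of 10 in LPS (median -0.06). In each treatment 1 of these values was a bound. The DMSO values of Gm4841 (-0.04, SD 0.06) and F830016B08Rik (-0.08, SD 0.13) were within their technical SDs. Of all genes, 42.35% were below 0 in DMSO and 49.21% in LPS.

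Interferon signalling genes were taken from a list of 19 ligands, receptors, kinases, transcription factors and feedback inhibitors. Past 2-fold higher in LPS were 5 of 18 compared under each siRNA, among them Irf7, Socs1, Socs3 and Usp18. Of all genes, 4.14% were with Ruvbl2 siRNA and 5.74% with control siRNA. Irf7, the interferon-induced factor that amplifies type I interferon, differed by 3.14 and 2.52 with the Ruvbl2 and the control siRNA. Between the siRNAs, Irf7 was the 1 listed gene past 2-fold, lower by -1.19 in DMSO, and it was lower by -0.57 in LPS. Past 2-fold lower in DMSO were 0.537% of all genes. The list's DMSO median was -0.07 with 9 of 17 below 0, beside 42.35% of all genes. With spike-in scaling the median was -0.38 with 17 of 17 below 0 and 2 past 2-fold lower. On that scale the median of all genes was -0.27, and 221 of 13463 genes were past 2-fold lower. Usp18, a brake on type I interferon receptors, was higher by 0.08 in LPS (SD 0.06) and lower by -0.72 in DMSO (SD 0.10). Socs1 (0.37 and -0.08) and Irf9 (0.10 and -0.19) had the same signs, the DMSO value of Socs1 being within its technical SD. Irgm1, Irgm2 and Igtp also had these signs, but in LPS Irgm2 and Igtp were within their technical SDs. Irf1, a factor that induces many GBP genes, had 2 probes that disagreed. The brighter, A_55_P2000062, differed by -0.06 and -0.04 between LPS and DMSO with the Ruvbl2 and the control siRNA, and by 0.08 in LPS and 0.11 in DMSO between the siRNAs, all below its technical SD of 0.13. The dimmer, A_52_P175685, differed by 0.25 and -0.60 between LPS and DMSO, and by -0.03 in LPS and -0.89 in DMSO (SD 0.21) between the siRNAs. Ifng was not well above background on any array, and Ifnb1 only on the LPS arrays, where it was at least 1.48-fold higher than in DMSO with Ruvbl2 siRNA and at least 1.86-fold higher with control siRNA, bounds that do not settle whether 2-fold was reached.

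Partner genes, which serve autophagy conjugation, ubiquitin tagging and inflammasomes, were measured for all 18 listed. Casp4, the mouse caspase-11 gene and the sensor of cytosolic LPS, was the 1 partner past 2-fold in any comparison, higher in LPS by 1.34 with Ruvbl2 siRNA and by 2.08 with control siRNA. Of all genes, 4.14% and 5.74% were past 2-fold higher in LPS with the Ruvbl2 and the control siRNA. Between the siRNAs no partner was past 2-fold in either treatment, and the medians were -0.04 in LPS and 0.08 in DMSO. With spike-in scaling the DMSO median was -0.23.

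Interferon-induced genes outside the GTPase families were listed for comparison, and 11 of 13 had a probe. Past 2-fold higher in LPS were 8 of 8 with Ruvbl2 siRNA (median 2.55), beside 4.14% of all genes. With control siRNA they were 8 of 9 (median 2.01), beside 5.74%. Those 8 include Ido1, which was well above background only with control siRNA and LPS. It was at least 2.04-fold higher there than with control siRNA and DMSO, a bound. With Ruvbl2 siRNA against control siRNA these genes were below 0 in 9 of 9 in LPS (median -0.69) and in 8 of 8 in DMSO (median -1.03). The LPS value of Ido1 was a bound (-0.69, SD 0.63), and it was itself the LPS median. Of all genes, 49.21% were below 0 in LPS and 42.35% in DMSO. In DMSO, Oasl2 was lower by -1.28, Isg15 by -1.15, Cxcl10 by -1.09 and Ifit1 by -1.07, all past 2-fold, and in LPS Ifit3 was lower by -1.20 and Oasl2 by -1.02. Past 2-fold lower were 0.537% of all genes in DMSO and 1.46% in LPS. Under normexp correction with quantile normalization the listed genes past 2-fold lower were 1 in LPS and 2 in DMSO. Of all genes, 71 of 13440 in LPS and 25 of 13420 in DMSO were past 2-fold lower under that correction. The GTPase members had medians of 0.09 in LPS and -0.58 in DMSO beside these. The difference between the lists was not tested.

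**Figure D5:**
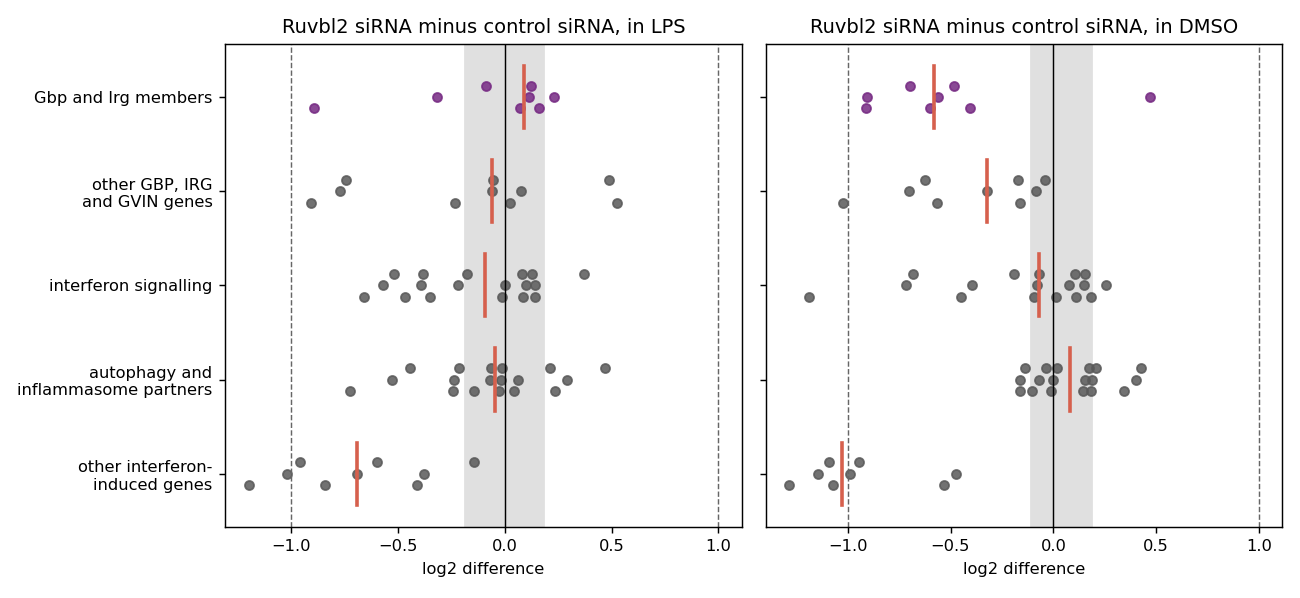
Log2 difference between the Ruvbl2 siRNA and the control siRNA array for the GTPase members and the 4 other lists, in LPS and in DMSO, with 1 point for each gene compared (bounds included), a vertical line at each list's median, a grey band over the quartiles of all genes and dashed lines at 2-fold. The interferon-induced genes outside the GTPase families lie below 0 in both treatments, and the members lie below 0 in DMSO with Gbp5 as the exception.

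The genes nearest in pattern to the members were ranked by the root mean square difference, over the 4 arrays, between each gene's centred level and the median centred level of the 8 measured members. That median was 0.60 with Ruvbl2 siRNA and LPS, -0.91 with Ruvbl2 siRNA and DMSO, 0.61 with control siRNA and LPS, and -0.42 with control siRNA and DMSO. Among 12463 other genes, the nearest were Clec2l (0.08), Oas1a (0.08), Rhod (0.09), Eif2ak2 (0.10), Nod2 (0.10), Lpp (0.10), Slc49a4 (0.11), Cp (0.11), Klhl41 (0.12) and Oas1f (0.12). Oas1a encodes an oligoadenylate synthetase and Eif2ak2 the double-stranded RNA kinase PKR, both interferon-induced, and Nod2 encodes a sensor of bacterial cell wall. Of the members, Igtp (0.08) and Ifi47 (0.12) lay closest to their own median and Gbp3 (0.65) and Gbp7 (0.79) farthest from it, with larger differences between arrays. Distances over 4 arrays describe likeness in these samples only.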

How the data were processed

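The members, lists and comparisons were chosen with earlier results of these data known. The deposited values are Agilent 1-colour array intensity values: the background of each spot was subtracted and its trend within the array removed, per the file headers, by Feature Extraction 11.5.1.1 (the submitters' processing notes give 11.0). The deposited value table, also intensity, held the same numbers at 62976 of 62976 spots per array, at a relative tolerance of 1e-06. The values are not normalized between arrays. The build behind the RefSeq promoter table differs from that of the array annotation, so no probe positions are given.

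Spots of a probe were averaged without control spots and outliers. Of 56605 probes, 32994 were named through their RefSeq accession, giving 22911 genes, and no spot was saturated. The 75th percentile signal was between 330.8 and 456.3, and between 54.1% and 55.0% of spots were well above background. Each gene's main probe was the one of highest mean level. A gene measured on only 1 array of a pair was compared with the floor of the dim array, or with its own dim value if higher, and the difference is a bound. There were 5 comparisons: LPS against DMSO with each siRNA, Ruvbl2 against control siRNA in each treatment, and the difference of the LPS effects. With 1 array in each group no test was made. The calculation was tested on simulated data.

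All members were named. Of the other lists, the genes named were taken from those past 2-fold in a comparison and the brightest of each list, and Irf1, Ifng and Ifnb1 were added for their roles after their values were seen. Gbp10, 9930111J21Rik2, Irf9, Map1lc3a and Gabarapl2 were named because their differences changed sign, a choice made on the values. The 10 genes nearest in pattern were named by rank. The values of 1 gene are not reported here. Alternatives were 10: normexp correction with an offset of 50 and quantile normalization (on median signals, since the mean signal column was not among those used here), quantile normalization, centring on detected probes, cyclic loess, spike-in scaling, the deposited table, the mean of a gene's probes, a brighter array at a level of -2 or above, no filter, and a 1.5-fold rule. Software was R 4.3.3 with limma 3.58.1 and Python 3.11.15.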

Additional observations from a re-analysis of the deposited data

Results flagged for a closer look

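Among the GTPase members, the siRNA difference had opposite signs in LPS and in DMSO, above 0 in LPS and below 0 in DMSO, for 4 genes. The value in LPS minus that in DMSO was 0.79 for Irgm1, 0.77 for Igtp, 0.72 for Irgm2 and 0.52 for Gbp2. For Irgm2, Igtp and Gbp2 the value in LPS was within its technical SD, as was that of Gbp2 in DMSO. With 1 array in each group these differences were not tested.

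Other listed genes showed the same kind of opposite signs, also not tested. The siRNA difference in LPS minus that in DMSO was 0.81 for Gbp10, 0.80 for Usp18, 0.61 for F830016B08Rik, 0.45 for Socs1 and 0.12 for Gm4841, all above 0 in LPS and below 0 in DMSO. The DMSO values of Socs1, F830016B08Rik and Gm4841 were within their technical SDs. The same value was -0.90 for Sqstm1, -0.865 for Map1lc3a, -0.74 for Casp4 and -0.61 for Socs3, which were below 0 in LPS and above 0 in DMSO. The dimmer probe of Sqstm1 had -0.54 in LPS and -0.01 in DMSO, with no change of sign. Further listed genes also changed sign, among them Gabarapl2 (0.46) and Irf9 (0.29), and not all are named here. The LPS difference had opposite signs under the 2 siRNAs for Gbp10, for 9930111J21Rik1 and for 9930111J21Rik2, whose LPS difference with Ruvbl2 siRNA minus that with control siRNA was 0.81, 0.51 and -0.068. Both LPS differences of 9930111J21Rik2 were within their technical SDs, as were that of Gbp10 with Ruvbl2 siRNA (0.21, SD 0.27) and that of 9930111J21Rik1 with control siRNA (-0.08, SD 0.13). The dimmer probe of 9930111J21Rik1, A_55_P2015405, had 0.09 and 0.23 with the Ruvbl2 and the control siRNA, with no change of sign.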

How the results depend on the processing

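With 1 array in each group the spread between cultures is unknown, and members near the floor carry the largest technical error. The deposited table gave the same values as the scanner output. Of the members' differences, those of Gbp3 and Gbp5 between the LPS effects changed sign under some alternatives, and no other did. Under normexp correction with quantile normalization the median LPS effect with Ruvbl2 siRNA was 1.31 and the median difference of LPS effects was 0.17. Under spike-in scaling these were 1.85 and 0.94, with 4 members past 2-fold higher in the difference, as were 243 of 12471 genes. In DMSO the median siRNA difference under that scaling was -0.89 with 3 members past 2-fold lower, as were 221 of 13463 genes. With the brighter array at -2 or above, the median LPS effect with Ruvbl2 siRNA was 1.77 over 6 members. The median siRNA difference in LPS was then -0.0076 in place of 0.09, with 3 of 6 members below 0. Without a filter, Iigp1 was the 1 member past 2-fold lower with Ruvbl2 siRNA in LPS and the 1 in DMSO. So were 765 of 22911 genes in LPS and 575 in DMSO. Iigp1 was not well above background on any array, so this is not a measured fold. At 1.5-fold the members past the rule were 8 for LPS with control siRNA, 1 lower with Ruvbl2 siRNA in LPS, 4 lower in DMSO and 4 for the difference of LPS effects. The causes were not tested. Counts over all genes moved as well. Past 2-fold higher in LPS with Ruvbl2 siRNA were 559 genes, against 298 under normexp correction with quantile normalization and 1104 under spike-in scaling. With control siRNA they were 776, against 450 under normexp correction with quantile normalization. Past 2-fold with Ruvbl2 siRNA in LPS were 143 higher and 197 lower, against 24 and 71 under normexp correction with quantile normalization. In DMSO they were 136 higher and 72 lower, against 14 and 25 under normexp correction with quantile normalization, 68 and 221 under spike-in scaling, and 26 and 34 with the brighter array at -2 or above. Past 2-fold higher in the difference of LPS effects were 64, against 14 under normexp correction with quantile normalization and 243 under spike-in scaling. Without a filter the counts were 1151 and 1336 higher in LPS with the Ruvbl2 and the control siRNA, 765 and 575 lower with Ruvbl2 siRNA in LPS and in DMSO, and 918 higher in the difference of LPS effects.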
